A study of Caenorhabditis elegans with 2 samples.

Results

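The genes described here encode the machinery that shortens, decaps and degrades messenger RNA in Caenorhabditis elegans, and the question was which of them carry a binding site of the zinc finger protein Y95B8A.8 (zfr-1) near a 5′ end. They were chosen by name: the protein-coding genes whose symbol starts with ntl-, exos-, smg-, dcap-, xrn-, lsm- or panl-, together with let-711, ccf-1, ccr-4 and parn-2. This gave 40 genes of 19973. Both samples belonged to 1 group, whole young adults at 63 hours, synchronised as starved L1 larvae, of the single strain RW12277, in which CRISPR put TY1, EGFP and 3xFLAG on the protein at its own locus on chromosome I. They were labelled biological replicates 1 and 2, and chromatin was precipitated with an antibody against GFP. No second genotype, stage or treatment was present, so the comparisons were between members, between replicates, and between the members and all protein-coding genes. Animals were taken whole, so a site cannot be placed in a tissue.

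Most messenger RNAs are degraded after their poly(A) tail has been shortened. The CCR4-NOT complex does most of this work, with help from the PAN2-PAN3 and PARN enzymes. Afterwards the cap is removed and XRN enzymes digest the RNA from its 5′ end, or the exosome digests it from its 3′ end. A separate surveillance route, nonsense-mediated decay, was worked out in this species through the smg genes and removes transcripts with early stop codons. In late worm oocytes and the earliest embryo, where transcription is largely silent, stored messages are controlled largely through their tails.

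A peak of the main list was a region called on both replicates together with an IDR of at most 0.01, the irreproducible discovery rate being low where repeated calls rank a peak alike, and this equals a score of at least 830 on a scale up to 1000. A gene had a peak when a summit lay within 1000 bp of the 5′ end of any of its annotated transcripts. The signal of a peak is the authors' peak caller's own value and was compared only within a list. Besides the thresholded lists, ranked lists with all weaker candidates were used to read the signal at members that had no peak. The lists give no read totals, so the depth behind each value is unknown. Coordinates are on ce11.

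Of the 40 genes, 9 had a peak: ntl-11, xrn-2, ntl-2.1, lsm-7, ntl-3, ccr-4, ccf-1, lsm-6 and let-711. This was 22.5% (exact Clopper-Pearson 95% interval 10.8 to 38.5), against 6.46% of all 19973 protein-coding genes by the same rule. None of the 40 genes lies on X, and 7.15% of the 17242 autosomal genes had a peak. CCR4-NOT had peaks at 6 of 9 genes (66.7%, 29.9 to 92.5), and the other 31 genes had 3 (9.68%, 2.04 to 25.8). No test over a gene list was made, so these shares are a description, and neighbouring genes that share a promoter are not independent.

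**Figure D1:**
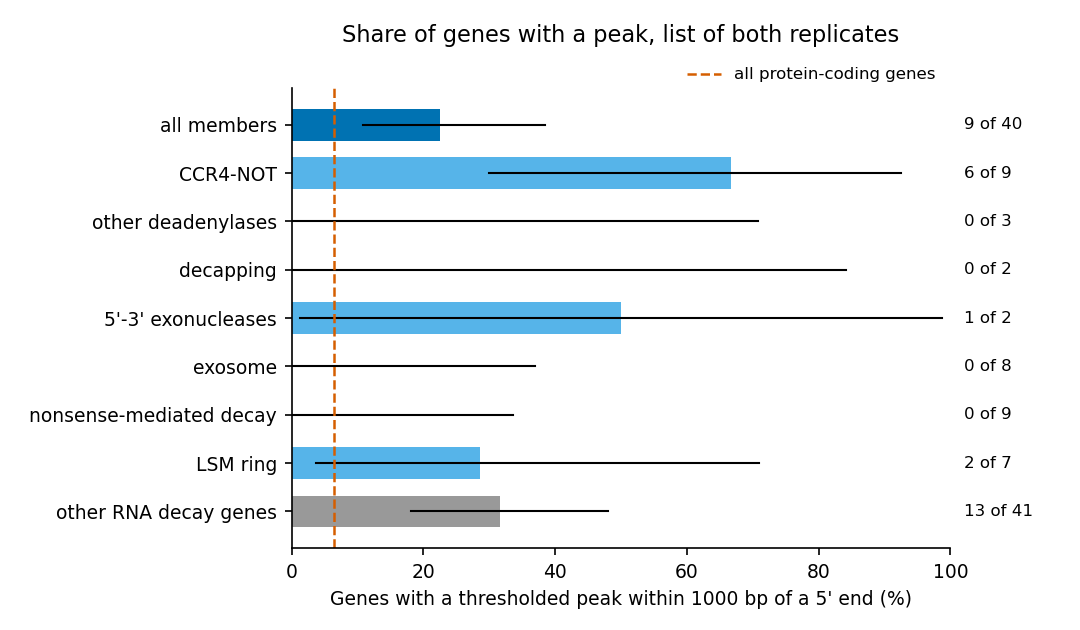
Percent of genes with a thresholded peak within 1000 bp of a 5′ end, for all 40 members, for each complex and for 41 other RNA decay genes, with exact Clopper-Pearson 95% intervals as black lines. The dashed line marks the 6.46% of all protein-coding genes; CCR4-NOT reaches 66.7%, while the exosome and nonsense-mediated decay bars are at 0.

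The sequences around the summits are shown for 5 of the 6 members that own the nearest 5′ end, since these sites are the ones most directly tied to a member. Each run covers 50 bases to each side of the summit, is read along the member's strand from RefSeq's WBcel235 genome, and lies outside annotated UTRs. The windows are chrIV:15471573-15471673 (minus strand) for ntl-11, chrII:14155632-14155732 (plus) for xrn-2, chrII:4376862-4376962 (minus) for ntl-2.1, chrIII:11834255-11834355 (minus) for ntl-3 and chrIII:6946522-6946622 (plus) for let-711. Capitals mark the words discussed next.
ntl-11: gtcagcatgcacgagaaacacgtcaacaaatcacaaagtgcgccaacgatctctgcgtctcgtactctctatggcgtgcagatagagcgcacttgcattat
xrn-2: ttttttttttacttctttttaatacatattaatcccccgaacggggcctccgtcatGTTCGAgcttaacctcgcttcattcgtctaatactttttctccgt
ntl-2.1: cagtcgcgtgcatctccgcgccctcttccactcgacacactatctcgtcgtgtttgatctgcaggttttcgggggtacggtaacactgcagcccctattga
ntl-3: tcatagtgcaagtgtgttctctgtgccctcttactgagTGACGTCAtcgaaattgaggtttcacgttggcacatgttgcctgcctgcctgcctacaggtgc
let-711: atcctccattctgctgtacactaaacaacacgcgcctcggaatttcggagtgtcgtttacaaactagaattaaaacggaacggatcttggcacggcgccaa

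Marked words occur at xrn-2 and ntl-3. In the xrn-2 window it is GTTCGA, the core of the B box inside tRNA genes, although no non-coding gene is annotated within 250 bp of that summit. In the ntl-3 window it is TGACGTCA, the palindrome known as a cyclic AMP response element, picked after the sequences were seen. In 301 bp windows centred on the summit, GTTCGA or its reverse complement was at 1 of the 9 members' sites, at 19% of all 1694 peaks and in 9.1% of all promoters (the 301 bp upstream of the outermost 5′ end). TGACGTCA was at 1 of 9, at 2.07% of peaks and in 1.58% of promoters. The TATA word TATAAA, on both strands, was at 4 members' sites (xrn-2, ccr-4, ccf-1 and let-711), at 24.4% of all peaks and in 39.7% of promoters. TTTCAG, the 3′ splice and trans-splice consensus, was also at 4 (ntl-11, ntl-3, ccr-4 and lsm-6), against 36.9% of peaks and 48.3% of promoters. GAGAGA was at 3 (xrn-2, ntl-2.1 and ntl-3), against 28.9% of peaks and 21.6% of promoters. The E-box CACGTG and the GC box CCGCCC were at 0 of the 9 sites, against 8.62% and 11.6% of all peaks, and 5.75% and 7.94% of promoters. No word was shared by all 9 sites.

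Base composition also varied among the sites. The 301 bp window at ntl-2.1 had a GC content of 57.8% and that at ntl-3 44.9%. The other 7 windows lay between 31.6% at ccr-4 and 38.9% at ccf-1. The median of the 9 was 36.2%, against 40.5% over all peaks (interquartile range 35.9 to 45.5) and 33.2% over all promoters.

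Among the CCR4-NOT genes, ntl-11, which encodes a subunit named after CNOT11, had the strongest site of all 40 members. Its peak (IV, 15471478 to 15471767, summit 128 bp upstream of the 5′ end) had a signal of 191 and stood at rank 78 of 1694. The signal at this site was 86.7 in replicate 1 and 101 in replicate 2, with the full score of 1000 in each. No other protein-coding 5′ end lay within 1000 bp of this summit, and both single-replicate lists held the peak.

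The peak of ntl-2.1, which encodes a NOT2 subunit and is named ntl-2 in the Ensembl annotation, lay 447 bp upstream (II, 4376767 to 4377056). Its signal was 93.3, at rank 534. It was 50.7 in replicate 1 (score 985) and 44 in replicate 2 (score 775), so the site was over the threshold in replicate 1 alone. No other protein-coding 5′ end was near it. Its paralogue ntl-2.2, named tag-153 in the Ensembl annotation, had no peak, and its strongest ranked signal was 44.6 with a score of 370.

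The ntl-3 gene, for a NOT3 subunit, had its peak (III, 11834160 to 11834449) inside the gene. The summit lay 608 bp upstream of an internal 5′ end and in an intron of the longer transcript. The signal was 69.6, with 45.7 in replicate 1 (score 699) and 30.4 in replicate 2 (score 520). The call on both replicates together had a score of 1000 although neither replicate passed alone. With only the outermost 5′ end of each gene, ntl-3 no longer counted.

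At let-711, which encodes the NOT1 scaffold on which the complex is built, the summit lay 146 bp upstream of the 5′ end (III, 6946427 to 6946716). The signal was 52.7, at rank 1582 of 1694, and the score was 830, exactly the threshold. Replicate 1 held 19.6 (score 25) and replicate 2 held 39 (score 659) at this site. The neighbour abu-13 had its 5′ end 674 bp from the summit. The score was far under the threshold in replicate 1 and nearer to it in replicate 2.

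The 2 deadenylase subunits of the complex had sites that lay closer to another gene. The peak counted for ccr-4, a catalytic deadenylase (IV, 12360870 to 12361159, signal 63.9, score 887), had its summit 527 bp upstream of ccr-4 and 223 bp upstream of sec-24.2, which runs the opposite way and encodes a coat protein of secretory vesicles. The 5′ end of ZC518.8 was 893 bp away. In replicate 2 the signal was 44.2 (score 528), and replicate 1 had no ranked summit within 100 bp. The peak counted for ccf-1, the CAF1 deadenylase (III, 11920781 to 11921070, signal 63.5, score 833), lay 689 bp upstream of ccf-1. Its summit was in a coding exon of trap-4, a translocon-associated protein gene, 191 bp inside that gene's 5′ end. The 5′ end of Y56A3A.22 was 766 bp away. It had a signal of 33 in replicate 1 (score 498) and 30.1 in replicate 2 (score 210). Neither peak would count for a CCR4-NOT gene if only the nearest gene were taken.

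The remaining CCR4-NOT genes fell under the threshold. At ntl-9, for an armadillo repeat subunit of the RCD1 type, the strongest ranked peak lay 33 bp upstream of the 5′ end with a signal of 60.7 and a score of 663. It was 37.3 in replicate 2 (score 710) and missing in replicate 1. At ntl-4, for the ubiquitin ligase subunit, the signal was 39.5 and the score 133.

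**Figure D2:**
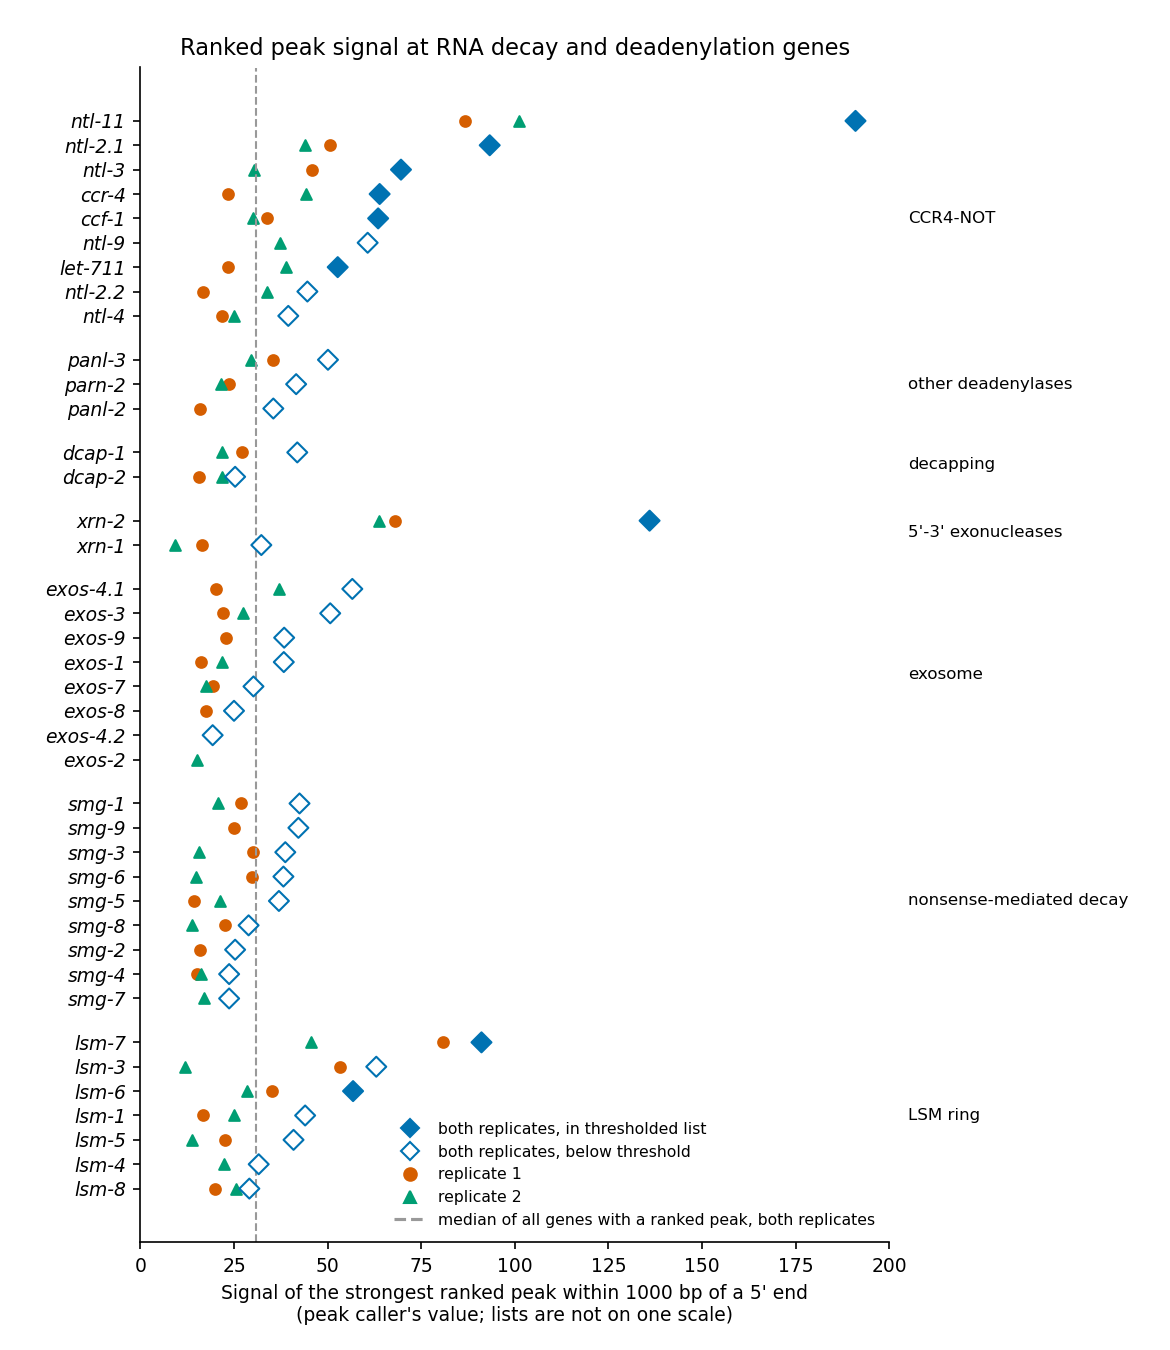
Signal of the strongest ranked peak within 1000 bp of a 5′ end for each of the 40 members, by complex, for both replicates together (diamonds, filled where in the thresholded list), replicate 1 (circles) and replicate 2 (triangles). The lists differ in scale and the 3 symbols of a gene can stand for different sites; ntl-11 at 191 and xrn-2 at 136 stand apart, and 30.9 (dashed line) is the median of all genes with a ranked peak.

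Outside CCR4-NOT the strongest site was at xrn-2, a nuclear 5′ to 3′ exonuclease known in this species to degrade mature microRNAs. The peak (II, 14155537 to 14155826) had a signal of 136, at rank 199 of 1694, with its summit 86 bp upstream of the 5′ end. The site was over the threshold in both replicates, with 68.1 in replicate 1 and 63.7 in replicate 2 and a score of 1000 in each. The summit lies in the gap between xrn-2 and rpl-37A, a large ribosomal subunit gene on the same strand that ends at 14155569. It was 388 bp downstream of the 5′ end of rpl-37A, so the peak counts for both genes and is nearer to xrn-2. The cytoplasmic exonuclease gene xrn-1 had no peak, with a strongest ranked signal of 32.3 and a score of 97.

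Of the 7 LSM genes, whose products form rings that bind decapping substrates in the cytoplasm or U6 snRNA in the nucleus, lsm-6 and lsm-7 had peaks. The lsm-6 peak (I, 1701154 to 1701443, signal 56.8, score 945) was 62 bp upstream of its 5′ end, closer than at any other of the 9 members. The 5′ end of its neighbour Y71G12B.13 was 806 bp from the summit. Its signal was 35.1 in replicate 1 (score 572) and 28.6 in replicate 2 (score 286).

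The lsm-7 call did not rest on the same site in both replicates. The main peak was only 91 bp wide (IV, 10934298 to 10934388, signal 91.1, score 1000). Its summit was 821 bp downstream of the lsm-7 5′ end, past the end of the gene and in the 3′ UTR of lgg-2, an autophagy gene on the opposite strand with an internal annotated 5′ end 716 bp away. Replicate 1 had this site with a signal of 80.9 (score 1000), and replicate 2 had no ranked summit within 100 bp of it. Replicate 2 had its own thresholded peak instead in an intron of lsm-7, 480 bp downstream of the 5′ end (IV, 10933854 to 10934109, signal 45.5), where the list of both replicates held a ranked peak with a score of 401.

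The gene lsm-3 also had a thresholded peak in replicate 1 (IV, 13388764 to 13389033, signal 53.4, score 1000), 77 bp upstream of an annotated 5′ end and inside a coding exon of a longer transcript. In the list of both replicates a summit within 100 bp of this one had a signal of 63 and a score of 815, under the threshold. Replicate 2 had no ranked summit within 100 bp of it. Of lsm-1, lsm-4, lsm-5 and lsm-8, the highest ranked signal was 44 at lsm-1 and the lowest 29.1 at lsm-8.

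No exosome gene had a peak (0 of 8, with an upper limit of 36.9%). The nearest to the threshold was exos-4.1, a ring subunit, with a signal of 56.6 and a score of 800. Its strongest ranked signal was 20.1 in replicate 1 and 37 in replicate 2. By score exos-9 (38.4, score 610) and exos-3 (50.7, score 476) came next. At exos-1, exos-7, exos-8 and exos-4.2 the ranked signal was between 19.3 and 38.3, and exos-2 had no ranked peak in the list of both replicates, the only member without one.

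No nonsense-mediated decay gene had a peak either (0 of 9, upper limit 33.6%). The highest ranked signals were at smg-1, the kinase gene (42.5, score 299), and smg-9, a regulator of that kinase (42.2, score 437). The genes smg-3, smg-6 and smg-5 followed at 38.7, 38.2 and 37. The helicase gene smg-2 stood at 25.3 with a score of 119, and smg-8, smg-4 and smg-7 were between 23.7 and 28.9. All 9 genes had a ranked peak, and none had a score over 437.

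The decapping genes were also without a peak (0 of 2, up to 84.2%). The ranked signal was 41.9 at dcap-1, the activator, and 25.3 at dcap-2, the enzyme. Of the 3 deadenylase genes outside CCR4-NOT (0 of 3, up to 70.8%), panl-3 had 50.1 (score 483), parn-2 had 41.6 (score 407) and panl-2 had 35.5 (score 84). The upper limits for these groups lie above 6.46%, so a lower share than in all genes was not detectable with so few genes.

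The ranked lists reach far below the threshold. A ranked peak of both replicates lay within 1000 bp of a 5′ end at 39 of 40 members (97.5%), against 79.5% of all protein-coding genes. Over the genes with a ranked peak, the median signal was 41.6 at the members (interquartile range 32 to 56.7) and 30.9 at all genes (23 to 41.1). It was 63.5 at CCR4-NOT genes, where the lowest was 39.5, and 38.3 at the other members. It was 44 at LSM genes, 38.3 at exosome genes and 37 at nonsense-mediated decay genes. In the single replicates the members' medians were 22.9 in replicate 1 and 23.7 in replicate 2, against 19.6 and 19 at all genes.

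**Figure D3:**
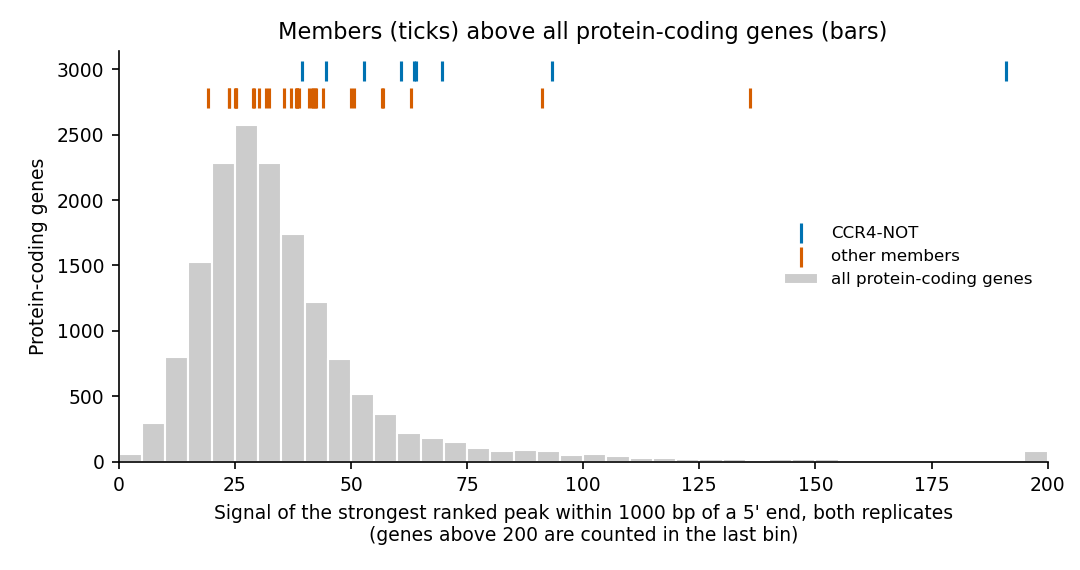
Number of protein-coding genes (bars) by the signal of their strongest ranked peak in the list of both replicates, with CCR4-NOT genes (upper ticks) and the other members (lower ticks) above. The CCR4-NOT ticks start at 39.5, while the bars have their median at 30.9.

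The number of annotated 5′ ends widens the stretch in which a gene can gain a peak. The 9 members with a peak had a median of 2 distinct 5′ ends and a window of 3776 bp, against 1 and 2001 bp for the 31 members without a peak, as for all protein-coding genes. Among all genes a peak was found at 5.19% of those with 1 annotated 5′ end, at 9.28% of those with 2 or 3 and at 12.4% of those with 4 or more. Of the 22 members with 1 such end, 4 had a peak (ccf-1, lsm-6, lsm-7 and xrn-2), as had 1 of 10 with 2 or 3 (ntl-3) and 4 of 8 with 4 or more (ccr-4, let-711, ntl-11 and ntl-2.1). The median gene length was 10263 bp for the members with a peak and 2718 bp for those without. Over the genome these medians hardly differed. All genes with a peak had medians of 1 end, 2001 bp of window and 2261 bp of length, the last against 2027 bp for all protein-coding genes. Of the 8 members with 4 or more such ends, all but dcap-2 and smg-9 are CCR4-NOT genes. The contrast of CCR4-NOT with the other members, in peaks and in ranked signal, therefore runs along window size too. With only the outermost 5′ end of each gene, every window was 2001 bp. A peak was then counted at 8 of 40 members (20%), against 5.96% of all genes. CCR4-NOT had 5 of 9 (55.6%), without ntl-3, and the other members had 3 of 31 (9.68%). Beyond these counts, the part of window size and gene length in that contrast and in the members' share was not tested.

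Most summits lay upstream. At 8 of the 9 genes the summit was at or upstream of the gene's nearest annotated 5′ end (88.9%), lsm-7 being the exception. This held for 75.4% of the 1291 genes with a peak. At ntl-3 that end was internal, and the summit lay inside the gene. The median position was -146 bp at the members and -196 bp at all genes with a peak. Of the 9 peaks, 6 (66.7%) lay near at least 1 further protein-coding 5′ end, against 35.9% of the 1063 peaks near such an end. The neighbours of ntl-11, ntl-2.1 and ntl-3 were all farther than 1000 bp. With each peak given to the nearest gene only, 6 members kept a peak (15%), against 4.76% of all genes. These were let-711, lsm-6, ntl-11, ntl-2.1, ntl-3 and xrn-2.

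**Figure D4:**
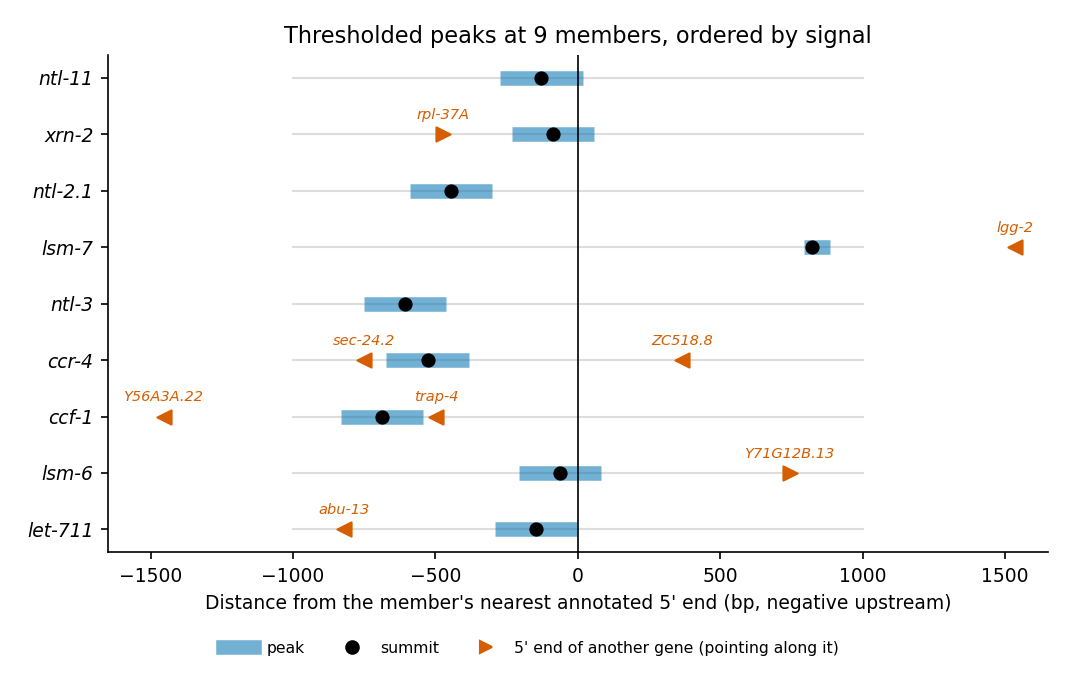
Peaks (bars) and summits (points) at the 9 members, ordered by signal, drawn along each member's strand from its nearest annotated 5′ end (0, in bp), with the 5′ ends of other protein-coding genes within 1000 bp of the summit as arrowheads. Of the 9 summits, 8 lie upstream of this nearest 5′ end, which is internal to the gene at ntl-3, and that of lsm-7 lies 821 bp downstream.

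The median signal of the 9 peaks was 69.6 (interquartile range 63.5 to 93.3), against 78.6 over all 1694 peaks (65.6 to 101). Just inside the threshold were let-711 with a score of 830 and ccf-1 with 833, and just outside were lsm-3 with 815 and exos-4.1 with 800.

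Replicate by replicate the count was smaller. The list of replicate 1 held a peak at 5 members (12.5%, against 3.06% of all genes), which were ntl-11, xrn-2, ntl-2.1, lsm-7 and lsm-3. The list of replicate 2 held 3 (7.5%, against 3.1% of all genes), which were ntl-11, xrn-2 and lsm-7. Of the CCR4-NOT genes, the list of replicate 1 held ntl-11 and ntl-2.1 and that of replicate 2 held ntl-11, so the count of 6 of 9 came from the calls on both together. Counted by overlap, 2 of the 9 peaks had a thresholded peak in both replicates (22.2%, against 23.4% of all 1694 peaks). Replicate 1 alone held 2 of the others, and 5 were in neither list (55.6%, against 45.8% of all peaks). The conservative list held 7 members (17.5%, against 5.94% of all genes), without ccr-4 and let-711.

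The replicates ranked the weaker members differently. At the 30 members with a ranked peak in both, the strongest signals had a Spearman correlation of 0.413, and at the 21 of these without a thresholded peak it was -0.145. These correlations are descriptions over genes that share the 2 libraries. For most weak members the strongest peaks of the 2 replicates were different sites, and 9 of the 30 had summits within 100 bp of each other. The correlation was 0.8 over these 9 and 0.1 over the 5 of them without a thresholded peak.

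Genes of mRNA decay and its control outside the name rule were read from a list of 42, of which 41 were found. A peak was present at 13 of them (31.7%, 18.1 to 48.1), against 6.46% of all genes. The strongest was at nhl-2, a TRIM-NHL cofactor of microRNA silencing (signal 194), with its summit at -832 bp from the 5′ end and also within 1000 bp of tag-340. The next were ifet-1, a translational repressor of germ granules (162, near rps-3A), and mex-3, an RNA-binding protein of the embryo (133). Like the lsm-7 peak, those of nhl-2 (III, 4899879 to 4899966) and ifet-1 (III, 4475634 to 4475718) were narrow. Further RNA-binding proteins of the germ line or early embryo with a peak were pos-1 (124), gld-1 (88.3), puf-5 (82.5), oma-2 (76.2), oma-1 (72.7) and gld-3 (70.9). The P body gene car-1 (85.5) and the GW182 gene ain-1 (92.7) also had one. Most of the enzymes proper had no peak. Among them, a peak was found at mtr-4, the helicase that feeds the nuclear exosome (98.7, summit at -165 bp), and at dcs-1, the scavenger decapping enzyme (96.6). Peaks were also shared by mtr-4 with catp-6, dcs-1 with fre-1, pos-1 with vha-18, car-1 with coa-5, gld-3 with T07F8.4 and oma-1 with C09G9.5. With each peak given to the nearest gene only, 10 of the 41 kept one (24.4%, against 4.76% of all genes), without nhl-2, ifet-1 and car-1. Several germ line regulators of the list had no peak in the main list, and these genes and those named next were chosen after their values were seen. The strongest ranked signal was 57.2 at rnp-8, 55.2 at gld-2, 41.5 at puf-8, 35.7 at fbf-1 and at fbf-2, 30.6 at gld-4 and 29.7 at gls-1, and fog-3 had no ranked peak. The exosome nuclease gene dis-3 (17.9) and the decapping cofactor genes edc-3 (40.2), edc-4 (55.5), patr-1 (36.9) and cgh-1 (59) had no peak either. The rest of the list was also without a peak. These genes were parn-1 (54.4), pup-2 (53.2), disl-2 (49.8), eri-1 (47.5), crn-3 (40.1), nonu-1 (37.3), skih-2 (32.9), rege-1 (28.2) and crn-5 (26.8). Beside them were alg-1 (59.2), ain-2 (51.4), pelo-1 (39.3) and alg-2 (32.3), while pup-3 and ttc-37 had no ranked peak of both replicates. The conservative list also held 13 of the 41 (31.7%, against 5.94% of all genes), but with rnp-8 and without ain-1. The list of replicate 1 held 6 of the 41 (14.6%, against 3.06% of all genes) and that of replicate 2 held 5 (12.2%, against 3.1% of all genes), and dcs-1, ifet-1, mex-3, nhl-2 and pos-1 were in both.

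No control library and no precipitation from untagged animals were analysed here, so background at these promoters was not measured.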

How the data were processed

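ChIP-seq peak lists of whole young adult worms were analysed for 1 group of 2 samples. Per the deposited README files, peak lists on assembly ce11 were derived for each replicate and for both together from their alignments and from further files whose content is not stated. The sources used here name no aligner and no caller. Values of the deposited lists were the peak signal, a score up to 1000 and, in the ranked lists, the −log10 of the IDR, as the authors deposited them. A score of 830 was found to correspond to an IDR of 0.01. Signals have no depth or control attached and were used within 1 list.

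Ensembl release 115 (WBcel235) gave 5′ ends. RefSeq symbols matched 19965 of 19973 protein-coding genes. Chromosome lengths fitted all lists. Shares carry Clopper-Pearson exact 95% limits, for counting error alone. Peak assignment was tested on simulated data. The tools were matplotlib 3.10.9, scipy 1.17.1, pandas 2.3.3 and numpy 2.4.6 under Python 3.11.15. The text names every member with a peak in full, every other member at least once, other decay genes with a peak and neighbours that share one. The members, lists and words were chosen with earlier results of these data known. Alternatives changed the distance, the gene given to a peak, the 5′ ends, the list and the replicates.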

Additional observations from a re-analysis of the deposited data

How the results depend on the processing

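No paired analysis was possible because there was 1 group and no test. The members' count was 9 of 40 (22.5%). At a distance of 500 bp it fell to 5 (12.5%), against 918 of all genes (4.6%). At 250 bp it was 4 (10%), against 560 (2.8%). Among peaks above the median signal of the list it was 4 (10%), against 766 (3.84%). At 2000 bp it was 12 (30%), against 1872 of all genes (9.37%). CCR4-NOT genes with a peak numbered 3 of 9 (33.3%) at 500 bp, 2 (22.2%) at 250 bp and 2 (22.2%) above the median signal. The other members numbered 6 at 2000 bp (19.4%), with exos-3, lsm-1 and panl-2 added. The other decay genes numbered 5 at 250 bp (12.2%). With 1 replicate left out, the members' count was 3 to 5, CCR4-NOT 1 to 2, the remaining members 2 to 3, the other decay genes 5 to 6 and all genes 612 to 619. The median of the members' ranked signals was 38.7 at 500 bp and 22.9 to 23.7 with 1 replicate, on the scale of those lists. Leaving out peaks near tRNA, snRNA and snoRNA genes gave 9 of 40 again, against 1183 of all genes (5.92%). The ranked peaks with a score of at least 830 also gave 9, against 1296 of all genes (6.49%), while Ensembl symbols gave 9 of 39. Those last 2 settings and the count of 1232 autosomal genes were chosen after seeing the data. For the 9 genes with a peak, the 2000 bp distance and the ranked peaks at that score could only add peaks. No non-coding gene lay within 250 bp of their summits, so leaving out peaks near small RNA genes could not remove 1 either. Those settings were fixed in advance for these genes and count toward each tally that follows. Of 11 settings, ntl-11 and xrn-2 had a peak in all 11, ntl-2.1 in 9, lsm-6 and lsm-7 in 8, let-711 in 7, ntl-3 and ccf-1 in 5 and ccr-4 in 4. In the lsm-7 tally, the setting without replicate 1 counted the site 480 bp downstream of the 5′ end in place of the main peak. The cause of the differences between settings was not tested. Depth is unknown, so low depth and absent binding cannot be told apart at genes without a peak.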

Other observations

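Some members without a peak had a site not far outside the distance used. The nearest summit to exos-3 was 1181 bp from its 5′ end and had a signal of 266, above that of any site counted for the 40 genes. The nearest summits to lsm-1 (64.9) and panl-2 (106) were at 1599 and 1915 bp. By contrast, the nearest summit to exos-8 was 101112 bp away, the nearest to smg-1 40714 bp and the nearest to smg-2 47325 bp.

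The counts by chromosome were small. The 10 members on III had 3 peaks and the 12 on IV had 3, against 10.5% and 7.35% of all genes there. The 9 on II had 2 (6.09% of all genes), the 5 on I had 1 (10.5%), and the 4 on V had 0 (4.02%).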
